A study of Mus musculus with 2 samples.

Results

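The killer cell lectin-like receptors are C-type lectin proteins by which natural killer (NK) cells, and some T cells, read other cells. Described here are 9 of them, Klra1, Klra4, Klra7, Klra8, Klrc1, Klrc2, Klrd1, Klrk1 and Klrg1, chosen by gene symbol from the 27998 genes of the feature table, where each symbol has 1 row. They were counted in live CD45+ cells sorted from subcutaneous tumors of B16F10, a mouse melanoma line, at day 14. The hosts had a C57BL/6 strain background and carried floxed Usp18 alleles in both groups. The control group was Usp18f/f, and the other group was Usp18f/f LysM-Cre, in which Cre is expressed from the promoter of Lyz2, a lysozyme gene of macrophages, monocytes and neutrophils. NK cells and T cells are therefore not the cells in which this Cre is meant to act. Usp18 is an interferon-induced protease that removes ISG15 from proteins and restrains interferon receptor signalling. Cells of 4 tumors per group were pooled into 1 single-cell 3' library, so each group has 1 library, no difference below has a replicate check, and no test between the groups was possible.

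The control library held 7754 barcodes and 43412346 UMIs (unique molecular identifiers, each counting 1 captured RNA molecule), or 2600 UMIs in the median barcode. There were 6063 barcodes, 48167632 UMIs and a median of 4455 in the library labelled knockout. After filtering, 6646 and 5451 cells were kept, and 8 barcode sequences occurred in both libraries. Usp18 went against the label, since mononuclear phagocytes had 18.4 CPM (the UMIs of a gene scaled to a class total of 1e6) in the control and 97.6 CPM in the library labelled knockout. The labels do not say which exons are floxed, so 3' tags may lie outside the deleted stretch. Whether this bears on the Usp18 values was not tested. Lyz2, the locus that carries Cre, was at 8990 and 17.4 CPM in the same mononuclear phagocytes. Usp18 was also higher in CD8 T cells of the library labelled knockout, at 9.96 and 31.3 CPM, a fold of 3.15 (counting interval 1.90 to 5.39). It stood at 23.4 and 23.9 CPM in NK cells and at 10.8 and 9.94 CPM in B cells. In CD3 cells with NK receptors it stood at 14.3 and 12.7 CPM. The sexes of the hosts are not in the labels: 1484 control cells had UMIs of Xist, which females express, and none of Y-linked genes, and 2576 had the reverse, against 3505 and 567 cells in the library labelled knockout. The mix of sexes therefore differed between the libraries and cannot be told apart from the genotype. Values within each sex-linked set are given for some members in NK cells, T cells, dendritic cells and mononuclear phagocytes. For genes outside the family, only the number of genes past 2-fold was counted within these sets.

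Receptors of this family come in inhibitory and activating forms. Klra1 (Ly49A) and Klra7 (Ly49G) are inhibitory receptors for classical MHC class I molecules, and signal through an immunoreceptor tyrosine-based inhibitory motif (ITIM) in their cytoplasmic tail. Klra4 (Ly49D) and Klra8 (Ly49H) are activating relatives that lack the motif and signal through the adaptor DAP12, encoded by Tyrobp. Klrc1 (NKG2A, inhibitory) and Klrc2 (NKG2C, activating) each pair with Klrd1 (CD94) and bind the non-classical molecule Qa-1, encoded by H2-T23. Klrk1 (NKG2D) is an activating receptor for stress ligands of the Rae-1, H60 and MULT1 families and signals through DAP10, encoded by Hcst, or DAP12. Klrg1 is an inhibitory receptor for cadherins that marks mature NK cells and some effector and regulatory T cells. Each NK cell is known to express its own assortment of Klra receptors, which makes the family a natural subject for counts in single cells.

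The coding starts show the inhibitory and the activating kind side by side. The sequences below are the first 45 coding bases, 5′ to 3′ from the start codon, of the transcript with the longest coding sequence in GENCODE M21 (GRCm38), and capitals mark the 6 codons that read as an ITIM, defined as a tyrosine with isoleucine, leucine, valine or serine at the second place before it and leucine or valine at the third place after it. The Klra genes come before the Klrc genes and Klrg1, with the inhibitory members of each kind before the activating ones.
Klra1: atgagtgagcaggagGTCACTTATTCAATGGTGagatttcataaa
Klra7: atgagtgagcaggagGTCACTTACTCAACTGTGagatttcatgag
Klra4: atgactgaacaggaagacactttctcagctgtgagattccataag
Klra8: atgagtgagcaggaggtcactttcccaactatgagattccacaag
Klrc1: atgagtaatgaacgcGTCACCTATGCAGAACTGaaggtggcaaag
Klrc2: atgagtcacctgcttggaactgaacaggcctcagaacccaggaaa
Klrg1: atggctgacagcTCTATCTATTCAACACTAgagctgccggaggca
The motif starts at codon 6 in Klra1, Klra7 and Klrc1 and at codon 5 in Klrg1. No match was found in the first 40 codons of Klra4, Klra8, Klrc2, Klrd1 or Klrk1. Counted from 1 at the A of the start codon, Klra1 and Klra7 each differ from Klra4 and from Klra8 by A23T, in codon 8, which is the tyrosine codon of the motif. Over all genes with a coding transcript of at least 40 codons, 795 of 21547 (3.69%) hold the motif in their first 40 codons. A wider search over 80 codons, with isoleucine also allowed at the last place, found 1 further match, at codon 54 of Klrg1, and the window and letters were narrowed after this was seen. A match is a description of letters and was not tested for function.

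All members lie on chromosome 6 (GRCm38), and no annotated gene overlaps any of them. From low to high coordinates, Klrd1 (ENSMUSG00000030165) spans 129591782 to 129598775 on the plus strand. The others are on the minus strand: Klrk1 (ENSMUSG00000030149) at 129610323 to 129623864, Klrc2 (ENSMUSG00000052736) at 129647496 to 129660689 and Klrc1 (ENSMUSG00000030167) at 129666015 to 129678973. The Klra genes follow, with Klra4 (ENSMUSG00000079852) at 130043731 to 130067271, Klra8 (ENSMUSG00000089727) at 130115226 to 130129898, Klra7 (ENSMUSG00000067599) at 130218605 to 130233322 and Klra1 (ENSMUSG00000079853) at 130363917 to 130386874. These 8 genes span 795 kb, while Klrg1 (ENSMUSG00000030114) lies apart at 122270596 to 122282882. The targeted gene, Usp18, is on the same chromosome, 8.32 Mb before Klrd1. The relatives are close copies of each other, which bears on how reads were assigned: the coding sequences of Klra1 and Klra4 are 88.5% identical, those of Klrc1 and Klrc2 81.4%, and those of Klra4 and Klra8 78.2%. In the last 500 bases of the transcripts, where 3' reads fall, 50.8% of the 60-base windows of Klrc1 also occur in Klrc2, 30.8% of those of Klrc2 occur in Klrc1, and 23.1% of those of Klra7 occur in Klra13-ps. The shares were 6.35% for Klra8, 3.63% for Klra1 and 2.49% for Klra4, and no window of Klrd1, Klrk1 or Klrg1 was shared. Values of the Klrc pair and of Klra7 are therefore uncertain in how reads were split among copies.

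Cells were gated by marker UMIs, and no member was used in a gate. NK cells had no UMI of Cd3d, Cd3e or Cd3g and at least 2 UMIs of Ncr1 and Klrb1c together, and numbered 173 in the control library (2.60% of kept cells) and 152 in the library labelled knockout (2.79%). Type 1 innate lymphoid cells were not separated from them. CD3 cells with NK receptors had at least 2 CD3 UMIs and at least 1 of Ncr1 and Klrb1c, and numbered 91 and 84. CD8 T cells had at least 2 CD3 UMIs, a UMI of Cd8a or Cd8b1, and none of Cd4, Ncr1 or Klrb1c, and numbered 548 and 378. The NK gate held the markers of its label: 10 genes of NK identity, among them Eomes, Gzma and Prf1, summed to 6884 CPM in the control and 9285 CPM in the library labelled knockout. The gate itself set CD3 UMIs to 0.

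Levels are CPM of UMIs summed over the cells of a class, with exact Poisson 95% intervals that cover counting error only, and because 1 tag is counted per molecule they are not scaled by gene length. Where a member is lower in a class, fewer expressing cells and less RNA per cell are told apart only as far as the shares of cells with a UMI allow. The activating receptors Klra4 and Klra8 were found mainly in NK cells. Klra4 stood at 685 CPM in NK cells of the control library and 454 CPM in those of the library labelled knockout, and the next class was CD3 cells with NK receptors, at 42.9 and 79.6 CPM. Klra8 stood at 529 and 374 CPM in NK cells and at 48.6 and 6.37 CPM in CD3 cells with NK receptors. Of all Klra8 UMIs in kept cells of a library, NK cells held 64.0% and 73.0%, and of those of Klra4 62.9% and 65.5%. Another 32.4% and 26.8% of the Klra4 UMIs lay in kept cells outside every gate, of which there were 1040 in each library.

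The inhibitory Klra receptors were spread over more lymphocytes. Klra7 had 361 and 321 CPM in NK cells and 414 and 392 CPM in CD3 cells with NK receptors, levels whose counting intervals overlap in each library. Klra1 was higher in CD3 cells with NK receptors, at 169 and 271 CPM, than in NK cells, at 80.8 and 69.9 CPM. CD3 cells outside the CD4, CD8 and NK receptor gates held 83.5 and 77.5 CPM of Klra7, and CD8 T cells 14.9 and 32.9 CPM. The NK gate thus held 28.9% and 34.3% of all Klra7 UMIs and 20.4% and 18.2% of those of Klra1.

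Klrd1, Klrk1 and the Klrc genes were detected in NK cells, CD3 cells with NK receptors and CD8 T cells alike. Klrk1 stood at 1035 and 865 CPM in NK cells, 540 and 697 CPM in CD3 cells with NK receptors, and 122 and 199 CPM in CD8 T cells. Klrd1 stood at 829 and 1088, 569 and 752, and 325 and 451 CPM in the same classes. Klrc2 stood at 563 and 322, 317 and 277, and 69.3 and 90.3 CPM. Klrc1 was below Klrc2 in NK cells and in CD3 cells with NK receptors and close to it in CD8 T cells, with 261 and 208, 131 and 137, and 53.4 and 89.3 CPM. The order NK cells, CD3 cells with NK receptors, CD8 T cells held for Klrk1, Klrd1, Klrc1 and Klrc2 in both libraries, although in the library labelled knockout the counting intervals of NK cells and CD3 cells with NK receptors overlap for Klrc2 (278 to 372 and 222 to 342 CPM), Klrk1 and Klrc1.

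Klrg1 had another order. CD4 T cells carried 80.9 CPM in the control and 80.4 CPM in the library labelled knockout, above NK cells at 34.0 and 29.0 CPM, which rest on 16 and 17 UMIs. Within CD4 T cells, those with a UMI of Foxp3, the regulator of regulatory T cells, had 173 and 110 CPM, with a UMI in 27 of 68 and 15 of 45 cells. CD4 T cells without Foxp3 had 25.3 and 57.4 CPM. In both libraries the level in Foxp3-positive CD4 T cells was above that in NK cells by more than counting error, while the intervals of CD4 T cells with and without Foxp3 overlap in the library labelled knockout.

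Of the members described here, dendritic cells carried Klrd1 and Klrk1 and almost nothing else. Other genes of the family, which are not among the members, summed to 138.3 and 137.7 CPM in conventional dendritic cells. Plasmacytoid dendritic cells had 364 and 472 CPM of Klrd1, in 111 of 162 and 57 of 82 cells, but 32.6 and 36.7 CPM of Klrk1. Conventional dendritic cells of type 2 had 501 and 633 CPM of Klrd1 and 160 and 237 CPM of Klrk1, whereas those of type 1 had 27.2 and 36.5 CPM of Klrd1 beside 173 and 172 CPM of Klrk1. Migratory dendritic cells, gated by Ccr7 and its companions, had 126 and 97.3 CPM of Klrd1 and 187 and 277 CPM of Klrk1. Across these 3 gates and both libraries the 4 Klra genes together had 1 UMI, and Klrc1 also had 1. The gate itself set UMIs of Ncr1 and Klrb1c to 0 in conventional dendritic cells. The NK identity list, which was not used in gates, summed to 6.29 and 12 CPM there. The split of Klrd1 between the types was seen in both libraries, while the types themselves were gated after the values of the class had been seen.

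Mononuclear phagocytes, the cells in which Cre is meant to act, had 19.3 and 26.3 CPM of Klrd1 and 14.7 and 33.6 CPM of Klrk1, and at most 1 CPM of any other member. Klrk1 UMIs occurred in 110 of 1685 and 312 of 2239 of these cells, a fold of 2.29 in CPM (95% interval 1.95 to 2.69). The direction differed between the sex-linked sets: with Xist UMIs only, in 403 and 1586 cells, Klrk1 stood at 10.9 and 41.8 CPM (3.82, 2.70 to 5.57), and with Y-linked UMIs only, in 849 and 319 cells, at 13.4 and 8.66 CPM (0.645, 0.417 to 0.971). Klrd1 stood at 11.9 and 34.6 CPM in the former and 21.7 and 11.4 CPM in the latter. Melanoma cells that passed the sort had under 1 CPM of every member. B cells, which should lack these receptors, gave the background. Their gate admitted no UMI of the CD3 genes, Ncr1 or Klrb1c, so this background may understate stray NK and T cell RNA. Klrd1 UMIs were in 0.532% and 1.45% of B cells and Klrk1 UMIs in 0.380% and 1.21%. Median depths were 1517 and 1785 UMIs, against 2296 and 2864 in NK cells. In B cells the 9 members summed to 11.3 and 36.0 CPM, from 24 and 29 UMIs, a fold of 3.20 (1.80 to 5.74). In mononuclear phagocytes they summed to 36.0 and 62.0 CPM, a fold of 1.72 (1.55 to 1.91). The background thus also differed between the libraries. Klra7 had no UMI in B cells of either library, which, at a limit of 3 cells for a count of 0, allows shares of up to 0.235% and 0.744% of B cells thinned to 1000 UMIs.

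**Figure D1:**
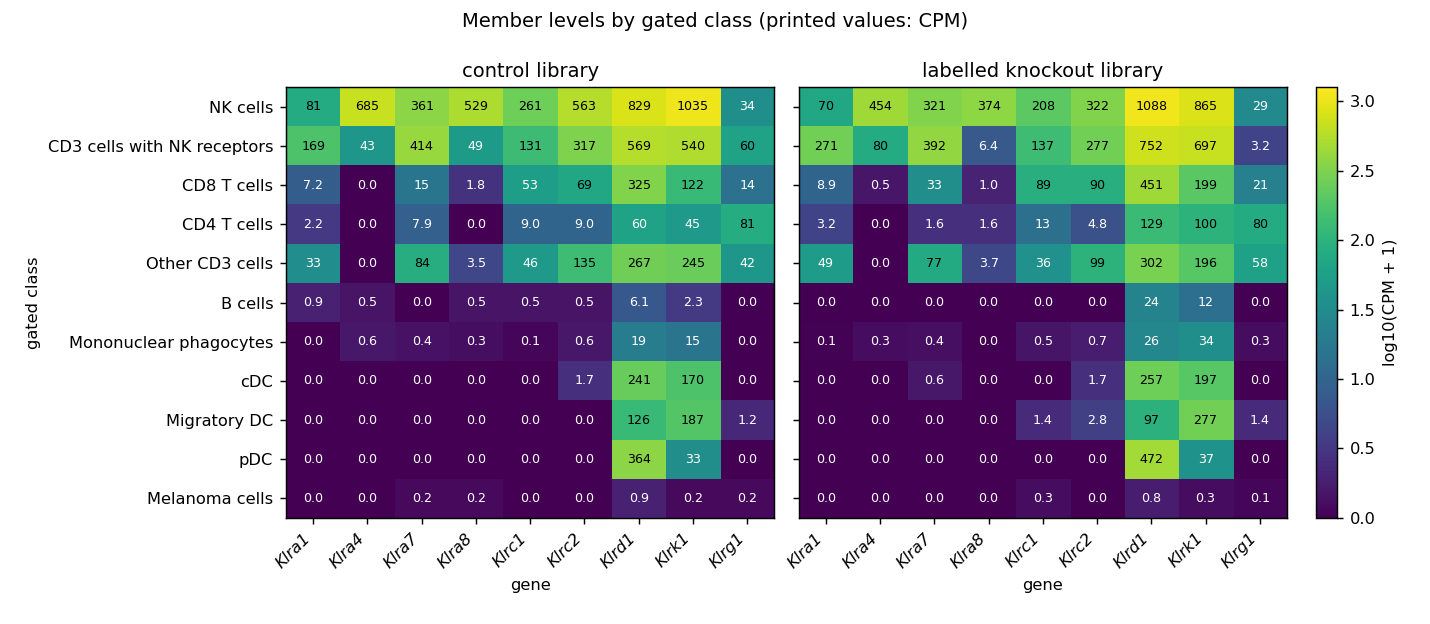
Level of each member (columns) in each gated class (rows), in CPM, as printed in the cells, with colour showing log10(CPM + 1), for the control library (left) and the library labelled knockout (right). Klra4 and Klra8 are brightest in NK cells (685 and 529 CPM in the control library), while Klrd1 and Klrk1 extend to dendritic cells. Neutrophils are left out, since 1 library holds 18 of them.

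The gene most like each member across classes was another member only for Klra1 and Klra7. Likeness was Pearson's r of log2(CPM + 5) over 22 points, which are classes with enough cells in each library and share library and depth, among 12778 genes. Klra1 was most like Klra7 (r = 0.98), and Klra7 most like Klra1 and then Klrc2 (0.98). Klra4 was most like Klrb1a (0.99), an NK receptor of the same gene complex, and Klra8 most like Rab27b (0.98). Klrc1 and Klrc2 were each most like Samd3 (0.99). The widely spread members had lower best values, with Cd7 for Klrd1 (0.90) and Sema4a for Klrk1 (0.91), and Nebl led for Klrg1 (0.96).

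Within NK cells, members differed both in how many cells carried them and in how much each carrier held. Klrk1 UMIs were found in 90.8% of NK cells of the control library and 94.7% of those of the library labelled knockout, and Klrd1 UMIs in 80.9% and 92.1%. Klrc2 was found in 67.6% and 57.2%, and Klrc1 in 41.6% and 40.8%. Each Klra gene was found in a minority: Klra7 in 40.5% and 37.5%, Klra8 in 38.2% and 30.9%, Klra4 in 35.8% and 31.6%, and Klra1 in 12.1% and 9.87%. A cell that carried Klra4 held much of it, with a median of 5 and 4 UMIs and up to 16 and 21. The median carrier of Klrc1 held 1 UMI in each library, and of Klra8 3 UMIs in each. Klra4 was thus present at several UMIs in a minority of cells and undetected in the rest, whereas Klrk1 had a median of 3 UMIs in its carriers and was detected in most cells.

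Counted per cell, the Klra genes formed a graded repertoire. No Klra member was detected in 64 of 173 control NK cells (37.0%, exact binomial 95% interval 29.8 to 44.7) and in 59 of 152 NK cells of the library labelled knockout (38.8%, 31.0 to 47.0). Exactly 1 was detected in 36 and 44 cells, 2 in 39 and 28, 3 in 31 and 17, and all 4 in 3 and 4 cells. Both an activating (Klra4 or Klra8) and an inhibitory (Klra1 or Klra7) member were detected in 62 and 41 cells. Only activating ones were detected in 31 and 29, and only inhibitory ones in 16 and 23. Klrd1 together with a Klrc partner was detected in 115 of 173 and 100 of 152 cells. Every NK cell had at least 1 of the 9 members, with a median of 4 members per cell in each library.

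Co-detection was asked in cells thinned to 1000 UMIs, so that a deep cell could not pair genes by depth alone, with 1 NK cell per library left out as shallower. All 36 pairs of members were computed in each class and library, and the pairs named here were picked after all had been seen. Klra4 and Klra8 went together. In the control library Klra8 was detected in 25 of 52 NK cells with Klra4 (48.1%, 34.0 to 62.4) and in 28 of 120 without it (23.3%, 16.1 to 31.9). In the library labelled knockout the shares were 14 of 35 (40%, 23.9 to 57.9) and 13 of 116 (11.2%, 6.10 to 18.4). Intervals of cells with and without Klra4 did not overlap in either library. Part of the pair's 3' sequence is shared with other Klra genes, as given above.

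Klrc1 was detected mostly where Klra genes were not. In the control library Klrc1 was found in 5 of 52 NK cells with Klra4 (9.62%) and 34 of 120 without (28.3%). In the library labelled knockout it was found in 3 of 35 (8.57%) and 35 of 116 (30.2%). By Klra8 the shares were 9.43% against 28.6% in the control library and 14.8% against 27.4% in the library labelled knockout. By Klra7 they were 10.5% against 26.1% and 9.76% against 30.9%. In all 6 of these comparisons the share was lower in cells with the Klra gene, but several of the intervals overlap.

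With all UMIs and the 4 Klra genes pooled, the contrast was wider. Klrc1 was detected in 31 of 109 control NK cells with any Klra member (28.4%) and in 41 of 64 without one (64.1%). In the library labelled knockout these were 23 of 93 (24.7%) and 39 of 59 (66.1%). The same order was found in cells with Xist UMIs only, with 8 of 25 against 9 of 13 in the control and 19 of 71 against 34 of 52 in the library labelled knockout. In control cells with Y-linked UMIs only it was 13 of 46 against 17 of 31. The relation was therefore present in each library and in each sex-linked set with enough cells to count.

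**Figure D2:**
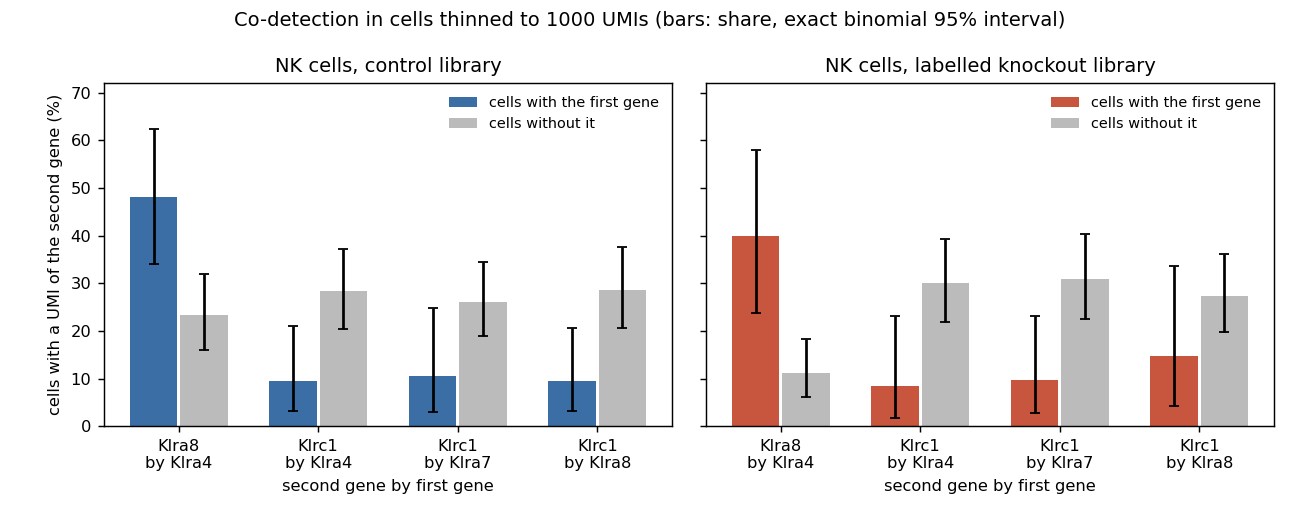
Share of NK cells, in percent, with a UMI of the second gene among cells with (coloured) and without (grey) a UMI of the first gene, after thinning each cell to 1000 UMIs, with exact binomial 95% intervals, in the control library (left) and the library labelled knockout (right). Klra8 is more frequent in cells with Klra4 (48.1% against 23.3% in the control library), and Klrc1 is less frequent in cells with Klra4, Klra7 or Klra8.

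NK cells split by these receptors also differed in genes outside the family. The split was made after the relation above was seen: 78 control and 70 labelled knockout cells had a Klra member without Klrc1, and 41 and 39 had Klrc1 without a Klra member. Median depths were 2163 against 2436 UMIs in the control and 2865 against 3143 in the library labelled knockout. Cells with a Klra member had more Eomes, a transcription factor of NK maturation, at 617 against 227 CPM in the control library and 371 against 99.3 CPM in the library labelled knockout. Zeb2, which drives terminal maturation, stood at 408 against 154 CPM and 199 against 71.7 CPM. Gzma, a granule protease, stood at 4228 against 1730 CPM and 5997 against 2036 CPM. Over the lists, 4 of 11 regulators and 4 of 10 effectors were higher in cells with a Klra member in both libraries, and 3 and 2 were lower in both. Of the 10 genes of NK identity, 5 were higher and 3 lower in both. The share of all genes higher in these cells was not computed.

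Cells with Klrc1 and no Klra member were higher in 7 of the 8 genes of the list of type 1 innate lymphoid cells in both libraries, again without a share over all genes to set beside it. Il7r, a cytokine receptor, stood at 219 CPM in them against 25.5 CPM in cells with a Klra member of the control library, and at 221 against 11.7 CPM in the library labelled knockout. Tnfsf10, which encodes the death ligand TRAIL, stood at 154 against 10.2 CPM and 160 against 27.4 CPM. Cxcr6, a chemokine receptor, had 65.0 and 127 CPM in the Klrc1 cells and no UMI in the Klra cells of either library. Rora stood at 268 against 25.5 and 110 against 11.7 CPM. Gpr183 stood at 138 against 40.8 and 105 against 11.7 CPM. The genes shown were chosen after their values were seen, and cells were not separated into NK cells and type 1 innate lymphoid cells by any other measure.

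**Figure D3:**
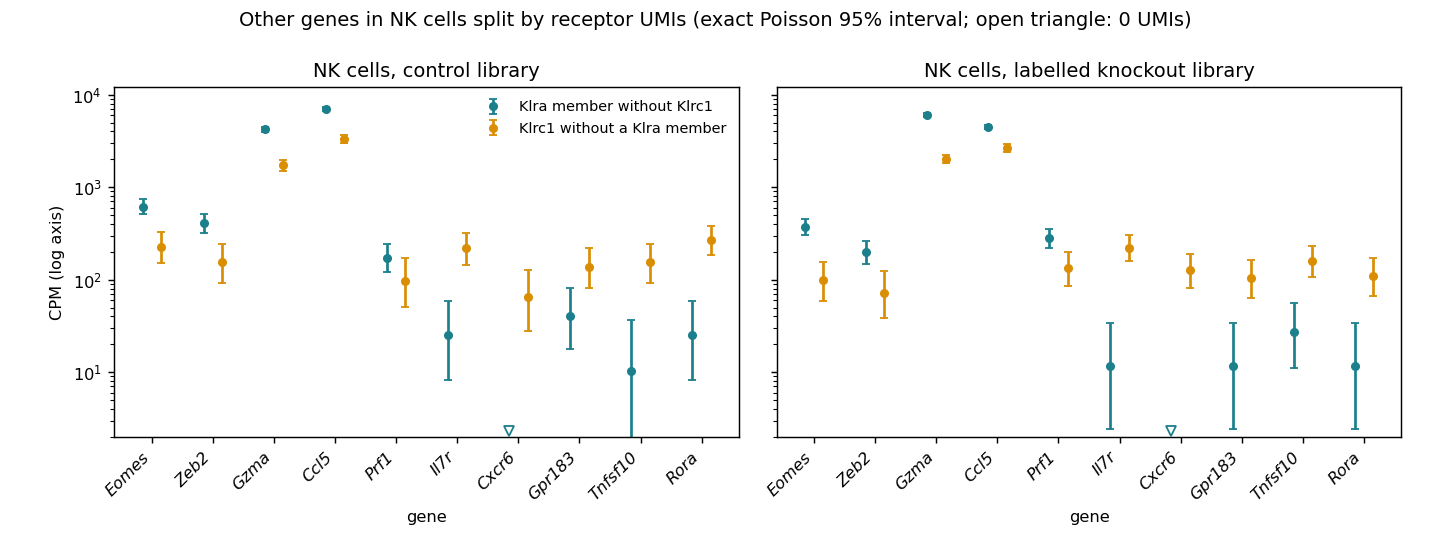
Level of 10 genes outside the family, in CPM on a log axis with exact Poisson 95% intervals, in NK cells with a Klra member and no Klrc1 and in NK cells with Klrc1 and no Klra member, for the control library (left) and the library labelled knockout (right). An open triangle marks 0 UMIs. Eomes, Zeb2, Gzma, Ccl5 and Prf1 are higher in the first set, and Il7r, Cxcr6, Gpr183, Tnfsf10 and Rora in the second, in both libraries.

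Between the libraries, most members were at a lower level in NK cells of the library labelled knockout, and Klrd1 was higher. Klrc2 differed most, at 563 CPM (265 UMIs) in the control and 322 CPM (189 UMIs) in the library labelled knockout, a fold of 0.572 (95% counting interval 0.472 to 0.692). Klra4 had a fold of 0.663 (0.561 to 0.782) and Klra8 a fold of 0.706 (0.586 to 0.850). Klrd1, the partner of Klrc2, was the only member above 1, with a fold of 1.31 (1.16 to 1.49).

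For the remaining members the interval of the fold was near 1 or held it. Klrk1 had a fold of 0.835 (0.736 to 0.948), Klrc1 0.796 (0.615 to 1.03), Klra7 0.888 (0.717 to 1.10) and Klra1 0.866 (0.543 to 1.38). On the scale of log2((CPM + 5)/(CPM + 5)), labelled knockout over control, 8 of 9 members were lower and the median of the members was -0.26, beside -0.12 over all 6387 genes with at least 20 UMIs. Of all those genes 40.6% were above 0. No member passed 2-fold on that scale, where 5.26% of all genes did. Relative to the median of all genes the members' median was thus lower by a small amount. The 9 members summed to 4379 and 3731 CPM, a fold of 0.852 (0.802 to 0.905).

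The same direction appeared in shares of thinned NK cells for some members only. Klrc2 was in 42.4% (35.0 to 50.2) and 25.2% (18.5 to 32.9) of them, the pair of shares whose intervals lie apart. Klra8 was in 30.8% (24.0 to 38.3) and 17.9% (12.1 to 24.9), intervals that just meet. Klra4 was in 30.2% and 23.2%, with overlapping intervals. Klrd1 was in 56.4% and 62.9%, and Klrk1 in 67.4% and 64.9%, which also overlap.

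The ratios in NK cells had opposite signs in the sex-linked sets for all 8 members with at least 20 UMIs over both libraries in each set. The share of all genes with opposite signs was not computed. Only for Klra1, Klra4 and Klra8 did the counting interval of the fold exclude 1 in both sets. That interval takes UMIs as independent, whereas single NK cells held up to 16 and 21 UMIs of Klra4. In thinned cells with Y-linked UMIs only, the share with Klra4 was higher by 0.957 percentage points in the library labelled knockout. The shares with Klra8 and Klra1 were higher there by 20.5 and 6.46 points. Cells with Xist UMIs only numbered 38 in the control and 123 in the library labelled knockout, and held 848 and 370 CPM of Klra4, a log2 ratio of -1.19. Cells with Y-linked UMIs only numbered 77 and 11 and held 565 and 1018 CPM, a log2 ratio of 0.84, the second value resting on 33 UMIs. Klra8 gave 515 and 295 CPM (-0.79) in the former and 403 and 1265 CPM (1.64, 41 UMIs) in the latter. Klrd1 had 827 and 1103 CPM in cells with Xist only and 763 and 710 CPM in cells with Y-linked UMIs only. Klrc2 was lower in the library labelled knockout with Xist only (558 and 310 CPM) and not with Y-linked UMIs only (500 and 556 CPM). With 11 cells in the smaller set, the difference between the sets was not tested.

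**Figure D4:**
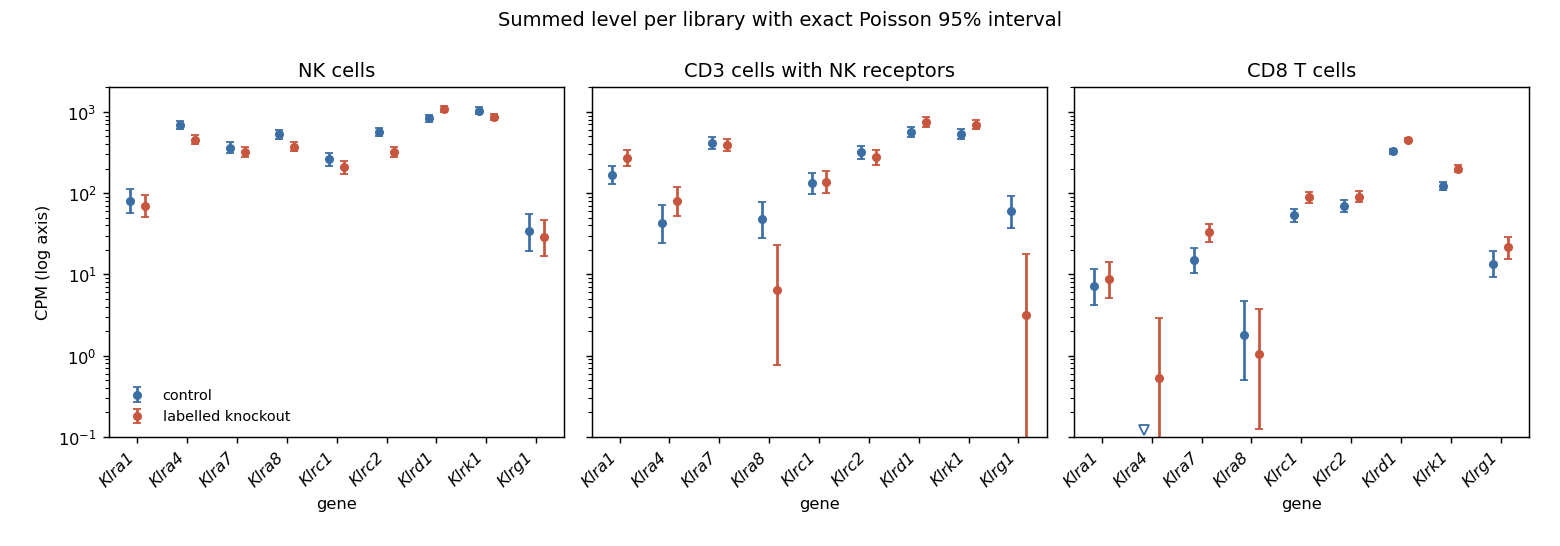
Level of each member in CPM on a log axis, with exact Poisson 95% intervals, in the control library and the library labelled knockout, for NK cells (left), CD3 cells with NK receptors (middle) and CD8 T cells (right). An open triangle marks 0 UMIs. In NK cells Klrc2, Klra4 and Klra8 are lower and Klrd1 higher in the library labelled knockout, and in CD8 T cells Klrc1, Klrd1 and Klrk1 are higher with all cells counted.

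**Figure D5:**
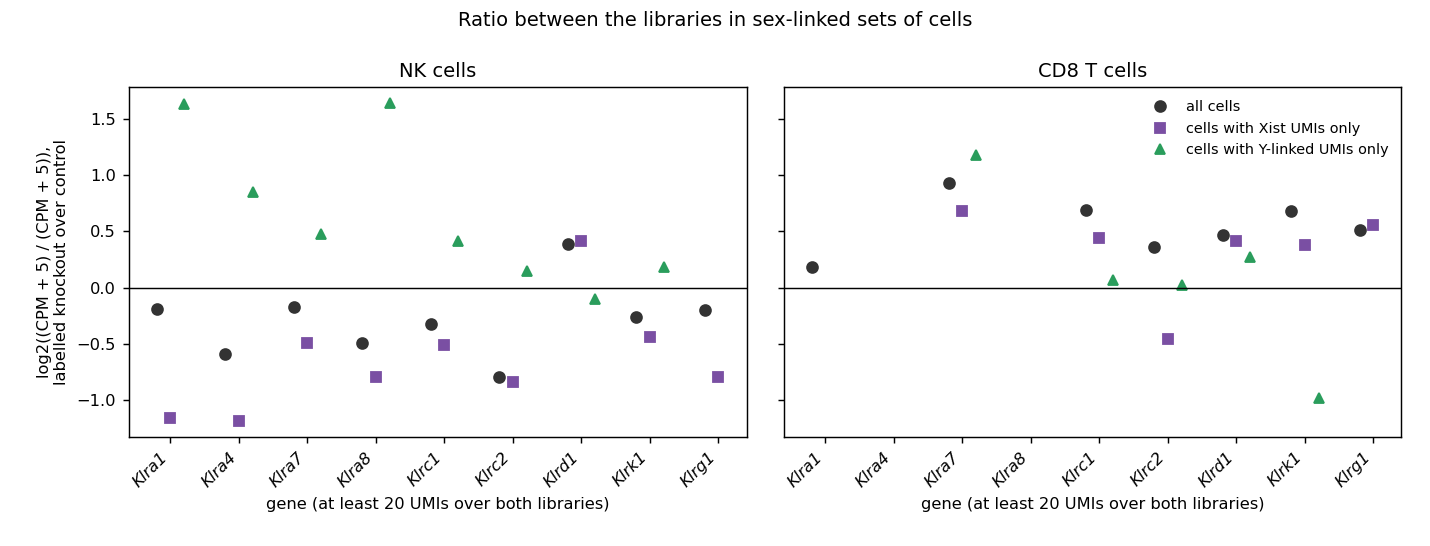
Ratio between the libraries, log2((CPM + 5)/(CPM + 5)), labelled knockout over control, for each member with at least 20 UMIs, in all cells and in cells with only Xist or only Y-linked UMIs, for NK cells (left) and CD8 T cells (right). The line marks equal levels. For Klra4 the ratio is -1.19 in cells with Xist only and 0.84 in cells with Y-linked UMIs only.

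Other parts of the NK program were read from lists of genes. Of 20 further family genes, 16 are in the feature table and 8 were measured in NK cells, with 2 higher and 6 lower in the library labelled knockout and a median of -0.35, where 40.6% of all genes were above 0. Klra9, which shares 3' sequence with Klra8, stood at 221 and 109 CPM, a fold of 0.494 (0.356 to 0.681), while Klre1 stood at 742 and 659 CPM. Of 17 adaptor and signalling genes 16 were measured, 5 higher and 11 lower, with a median of -0.26. Tyrobp, the DAP12 gene through which Klra4 and Klra8 signal, stood at 1671 and 1541 CPM, and Hcst, the DAP10 gene of Klrk1, at 470 and 326 CPM, a fold of 0.694 (0.568 to 0.846).

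Of 11 transcriptional regulators in NK cells, 3 were higher and 8 lower, and 1 passed 2-fold, against 5.26% of all genes: Prdm1, at 65.9 and 27.3 CPM. Eomes stood at 417 and 249 CPM, Zeb2 at 274 and 140 CPM and Tcf7 at 268 and 152 CPM. Of 9 measured effector genes, 5 were higher and 4 lower, and Gzmb, a cytotoxic protease, passed 2-fold, at 255 and 1184 CPM. In the 4 sets of NK cells split by Klra and Klrc1, Gzmb ran from 31.2 to 357 CPM in the control and from 1102 to 1506 CPM in the library labelled knockout, so it was higher in the latter in all 4 sets.

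CD3 cells with NK receptors carried a different assortment. Of them, 76 of 91 and 72 of 84 had no UMI of Cd4, Cd8a or Cd8b1. Klra7 was found in 41.8% and 40.5%, Klrc2 in 61.5% and 51.2%, and Klrk1 in 72.5% and 77.4%. Klra4 was found in 2 and 3 cells and Klra8 in 6 and 1, against 62 and 48, and 66 and 47, NK cells. The activating Klra genes were thus present in few of these cells, where the inhibitory Klra1 (24.2% and 32.1%) and Klra7 were frequent.

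Klra1 and Klra7 were found together there. In the control library 8 of 25 thinned cells with Klra7 had Klra1 (32.0%, 15.0 to 53.5), against 3 of 66 without it (4.55%, 0.948 to 12.7). In the library labelled knockout the shares were 4 of 15 (26.7%) and 11 of 69 (15.9%), with overlapping intervals. The relation of Klrc1 to the Klra genes was not that of NK cells: with all UMIs, Klrc1 was found in 37.2% and 34.0% of cells with any Klra member and in 22.9% and 16.2% of those without. After thinning, by Klra7 alone, the order turned, with 8% against 13.6% in the control library and 0 of 15 cells against 14.5% in the library labelled knockout, so no direction is given for these cells.

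Between the libraries, 8 members were measured in CD3 cells with NK receptors, 5 higher and 3 lower in the library labelled knockout, where 43.8% of all genes were above 0. The median log2 ratio of the members was 0.21 beside -0.07 over all genes. Klra1 stood at 169 and 271 CPM, a fold of 1.61 (1.14 to 2.28), Klrd1 at 569 and 752 CPM (1.32, 1.09 to 1.60) and Klrk1 at 540 and 697 CPM (1.29, 1.06 to 1.58). Only 1 of the 8 members passed 2-fold, against 5.23% of all 4745 genes. This was Klrg1, at 60 and 3.18 CPM, from 6 cells and 1 cell, with 52.4% of the control UMIs in a single cell. In cells with Xist UMIs only, Klra1 stood at 322 and 289 CPM and Klrk1 at 739 and 711 CPM, so their higher levels were not seen there. The log2 ratio of Klra1, 0.67 with all cells, was 0.01 at a mitochondrial limit of 5%, and those of Klrd1 and Klrk1 were 0.04 and 0.03 when cells with markers of other classes were kept. The sum of members stood at 2292 and 2614 CPM.

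CD8 T cells carried Klrd1 most, then Klrk1, and few Klra UMIs. Klrd1 was found in 50.7% of control cells and 64.0% of cells of the library labelled knockout, Klrk1 in 23% and 38.1%, Klrc2 in 15.9% and 28.6% and Klrc1 in 14.4% and 23%. Depth differed between the libraries, with medians of 2835 and 3448 UMIs, and after thinning the shares were 25.6% and 32.7% for Klrd1, 9.71% and 15.8% for Klrk1, 7.14% and 10.2% for Klrc2 and 6.41% and 7.51% for Klrc1. Klra4 had 0 UMIs in the control and 1 in the library labelled knockout. The shares of Klrd1, Klrk1, Klrc2 and Klrc1 stood above those in B cells, with and without thinning. The B-cell gate admitted no UMI of the CD3 genes, Ncr1 or Klrb1c.

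All 7 members measured in CD8 T cells were higher in the library labelled knockout, where 40.7% of all genes were above 0. Klrd1 stood at 325 and 451 CPM, a fold of 1.38 (1.25 to 1.53), and Klrk1 at 122 and 199 CPM, a fold of 1.63 (1.39 to 1.91). Klrc1 stood at 53.4 and 89.3 CPM (1.67, 1.31 to 2.13) and Klrc2 at 69.3 and 90.3 CPM (1.30, 1.04 to 1.63). Klra7, from 33 and 63 UMIs, stood at 14.9 and 32.9 CPM (2.20, 1.42 to 3.46). With the pseudocount of 5 CPM its log2 ratio was 0.93, which was 0.03 at a mitochondrial limit of 5%, and that of Klrd1, 0.46, was 0.26 at that limit. Of the measured members, 0 of the 7 members passed 2-fold, against 2.0% of all 9353 genes. The median log2 ratio of the members was 0.51 beside -0.07 over all genes, and their sum stood at 608 and 894 CPM, a fold of 1.47 (1.37 to 1.58).

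These ratios also differed between the sex-linked sets. In CD8 T cells with Xist UMIs only, 132 and 282 cells, Klrd1 stood at 384 and 515 CPM, Klrk1 at 179 and 234 CPM, Klrc2 at 138 and 98.9 CPM and Klrc1 at 77.3 and 106 CPM (1.38, 0.932 to 2.09). In those with Y-linked UMIs only, 226 and 32 cells, Klrk1 stood at 116 and 56.0 CPM, the latter from 8 UMIs, and Klrc1 at 39.9 and 42.0 CPM (1.05, 0.368 to 2.46). The interval of the Klrc1 fold held 1 in each set. The fold of Klra7 was 1.76 (0.821 to 4.31) with Xist only and 2.66 (0.869 to 6.92) with Y-linked UMIs only, and its intervals held 1 as well. The 4 migratory dendritic cell markers, among them Ccr7, which T cells also express, summed to 148 and 543 CPM in the CD8 gate. When cells with at least 2 UMIs of dendritic markers other than Ccr7 were left out, the log2 ratios were 0.56 for Klrd1, 0.73 for Klrk1 and 0.62 for the summed members, beside 0.46, 0.68 and 0.55 with all cells.

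Some pairs of members were found together in CD8 T cells, but not all. With all UMIs in the control library, Klrd1 was in 3 of 22 cells with Klrg1 (13.6%, 2.91 to 34.9). It was in 275 of 526 cells without Klrg1 (52.3%, 47.9 to 56.6). After thinning these were 1 of 9 and 139 of 537 cells, with overlapping intervals. In thinned cells of the control library Klrk1 was found in 14 of 39 cells with Klrc2 (35.9%, 21.2 to 52.8) and in 39 of 507 without it (7.69%, 5.53 to 10.4). In the library labelled knockout the shares were 12 of 38 (31.6%, 17.5 to 48.7) and 47 of 335 (14.0%, 10.5 to 18.2). Klrc2 was in 22.9% of control cells with Klrc1 and 6.07% of those without, and in 17.9% and 9.57% in the library labelled knockout, but reads of this pair may be exchanged.

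CD8 T cells with Klrk1 UMIs differed from those without in several effector genes: of 10 on the list, 6 were higher and 3 lower in both libraries. The share over all genes was not computed for this split. There were 126 and 144 such cells, with median depths of 3113 and 4038 UMIs, against 422 and 234 cells without, with medians of 2772 and 3233. Gzmb stood at 510 CPM in control cells with Klrk1 and 148 CPM in those without, and at 678 and 445 CPM in the library labelled knockout. Ifng, the interferon-gamma gene, stood at 317 against 108 CPM and 497 against 193 CPM. Tcf7, a factor of memory and stem-like T cells, had the reverse order, at 225 against 350 CPM and 92.7 against 364 CPM, as had Il7r, at 180 against 333 CPM and 225 against 432 CPM. These genes were chosen after their values were seen, and choosing cells by a UMI also chose deeper cells, as the medians show.

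The library ratios of Klrc1, Klrk1 and Klrd1 in CD8 T cells were larger in cells with checkpoint receptors, a split made after the values were seen. Cells with at least 2 UMIs of Pdcd1, Havcr2 and Lag3, receptors of activated and exhausted T cells, numbered 111 and 99. In them Klrc1 stood at 31.8 and 115 CPM, a fold of 3.62 (2.39 to 5.67), Klrk1 at 89.8 and 207 CPM (2.3, 1.77 to 3.02) and Klrd1 at 225 and 462 CPM (2.06, 1.74 to 2.44). In the 383 and 250 cells with no such UMI, Klrc1 stood at 65.2 and 59.1 CPM (0.907, 0.622 to 1.31), Klrk1 at 138 and 191 CPM (1.39, 1.11 to 1.74) and Klrd1 at 411 and 448 CPM (1.09, 0.949 to 1.25). For each of the 3 genes the counting intervals of the folds in the 2 sets lay apart, and the difference was not tested. Klrc2 stood at 44.9 and 79.6 CPM (1.77, 1.19 to 2.66) in the former and 85.1 and 105 CPM (1.23, 0.911 to 1.66) in the latter, with overlapping intervals. Within checkpoint cells with Xist UMIs only, 12 and 69 cells, Klrd1 stood at 205 and 612 CPM, and in those with Y-linked UMIs only, 80 and 8 cells, at 194 and 130 CPM, the latter from 9 UMIs. Klrc1 stood at 55.8 CPM, from 3 UMIs, and 162 CPM in the former (2.91, 0.964 to 14.4), and at 32.3 CPM and 0 UMIs in the latter. Klra7 was higher in cells without checkpoint UMIs, at 29.9 and 70.5 CPM against 0 and 1.08 CPM.

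Of the further family genes in CD8 T cells, 4 were measured, and Klre1 and Klra3 passed 2-fold, as did 2.0% of all genes. Klre1 stood at 36.7 and 79.9 CPM (2.18, 1.65 to 2.89) and Klra3 at 3.17 and 15.7 CPM. Of 14 measured adaptor genes 4 were higher and 10 lower, and Fcer1g, an adaptor of activating receptors, passed 2-fold at 29.0 and 77.3 CPM. Tyrobp, at 44.4 and 80.9 CPM, and Fcer1g are also expressed by myeloid cells, while Hcst, which Klrk1 uses, stood at 435 and 328 CPM (0.754, 0.681 to 0.834). Of 10 effector genes 7 were higher and 3 lower, where 40.7% of all genes were above 0, with Gzmb (255 and 569 CPM), Ifng (170 and 354 CPM) and Ccl3 (462 and 1312 CPM) past 2-fold higher and Xcl1 (357 and 131 CPM) past 2-fold lower.

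In dendritic cells Klrd1 and Klrk1 were compared between the libraries by type. Type 2 conventional dendritic cells, 127 and 86 in number, had folds of 1.26 (1.09 to 1.46) for Klrd1 and 1.48 (1.16 to 1.89) for Klrk1. Type 1 cells, 100 and 80, had folds of 1.34 (0.804 to 2.25) and 0.992 (0.801 to 1.23). With Xist only, in 22 and 59 type 2 cells, Klrk1 stood at 80.3 and 247 CPM, and with Y-linked UMIs only, in 77 and 7, at 209 and 227 CPM. Over all conventional dendritic cells, Klrd1 was at 289 and 275 CPM in cells with Xist only and at 234 and 168 CPM in cells with Y-linked UMIs only.

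Genes of the ligand families of these receptors were counted in the tumor cells and phagocytes that could display them. Melanoma cells numbered 111 and 245. In them H2-D1, which encodes a classical MHC class I molecule, stood at 147 and 315 CPM (2.14, 1.97 to 2.32). H2-K1, another such gene, stood at 148 and 270 CPM (1.82, 1.68 to 1.98). Whether Klra1 or Klra7 binds the forms of these molecules present here was not tested. H2-T23, the Qa-1 gene read by Klrc1 and Klrc2 with Klrd1, was at 8.36 and 11.1 CPM. Of the Klrk1 ligands, Raet1e was at 13.7 and 14.7 CPM and Raet1d at 4.09 and 4.38 CPM, while H60b and Ulbp1 had under 1 CPM each. Cdh2, a cadherin of the kind bound by Klrg1, was at 24.0 and 27.6 CPM.

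Of 17 ligand genes 13 are in the feature table. In melanoma cells, whose median depths were 48617 and 17532 UMIs, 8 were measured, 7 higher and 1 lower in the library labelled knockout, where 44.8% of all genes were above 0. In mononuclear phagocytes 10 were measured, 7 higher and 3 lower, where 41.9% of all genes were above 0, with H2-T23 at 135 and 221 CPM (1.64, 1.55 to 1.73) and H2-D1 at 1385 and 1937 CPM (1.40, 1.37 to 1.42). The melanoma cells passed a sort for CD45, which tumor cells lack, so those counted here are a selected set.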

How the data were processed

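The authors deposited raw UMI counts per gene and barcode, made with Cell Ranger 3.0.1 and mm10 per the submitters' processing notes, and the deposited counts carry no normalization. The depth of each library is given above. Analyses used Python 3.11.15 with numpy 2.4.6, scipy 1.17.1, pandas 2.3.3, scanpy 1.11.5, scikit-learn 1.9.0 and matplotlib 3.10.9. Kept barcodes had at least 200 genes and no more than 10% of UMIs from mitochondrial genes, and the highest Scrublet scores were removed in each library at 0.8% per 1000 barcodes (440 and 278 barcodes). Lymphoid gates also needed under 2 UMIs of B-cell markers, under 2 of mononuclear phagocyte markers and under 5 of melanoma markers. Thresholds of the other gates were set after the files were seen, as were 10 narrower gates, the NK and CD8 subsets and the use of summed members.

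UMIs were summed per class and library. CPM carries exact Poisson and shares carry exact Clopper-Pearson 95% intervals, and folds carry exact conditional binomial intervals; all cover counting error only. Log2 ratios used a pseudocount of 5 CPM and genes with at least 20 UMIs over both libraries, called measured. Shares and co-detection used cells thinned to 1000 UMIs. The interval and thinning steps were checked on simulated counts. Those for the intervals were Poisson draws of class sums, so the check does not cover UMIs clustered in few cells. Named genes were the members, members of the lists past 2-fold or with the highest CPM, and the 3 most like genes per member; others are named as chosen after their values were seen. Members and lists were chosen with earlier results of these data known. Gene positions and transcripts came from GENCODE M21 (GRCm38), whose identifiers match all 9 members. Further lists covered NK, ILC1, ILC2, T, gamma-delta T, and basophil or mast cell markers, and in the NK gate the last 2 lists had 0 UMIs in both libraries, ILC1 genes summed to 446 and 340 CPM, ILC2 genes to 238 and 172 CPM and T-cell genes to 221 and 159 CPM. Of the gamma-delta T list 1 of 5 genes is in the feature table.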

Additional observations from a re-analysis of the deposited data

Results flagged for a closer look

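Ratios between the libraries had opposite signs in cells with Xist UMIs only and in cells with Y-linked UMIs only for 8 of 8 members measured in both sets of NK cells, 2 of 5 in CD8 T cells, 2 of 2 in mononuclear phagocytes, 1 of 2 in conventional dendritic cells and 0 of 2 in migratory ones. The share of all genes with opposite signs was not computed. Given here are the members whose counting interval of the fold excluded 1 in both sets. That interval takes UMIs as independent, although 1 cell can hold many UMIs of a member. All values are log2 ratios, labelled knockout over control. The difference between the sets was not tested, with 1 pool per group. Klra1 in NK cells was at -1.16 and 1.63, the second from 6 UMIs in the library labelled knockout. Single NK cells of that library held up to 6 Klra1 UMIs, so the second ratio may rest on very few cells. Klra4 in NK cells was at -1.19 and 0.84, and Klra8 in NK cells at -0.79 and 1.64. Klrk1 in CD8 T cells was at 0.38 and -0.98, the second from 8 UMIs in the library labelled knockout. In mononuclear phagocytes Klrd1 was at 1.23 and -0.70, and Klrk1 at 1.55 and -0.43. The sets of NK cells with Y-linked UMIs only held 77 cells in the control and 11 in the library labelled knockout.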

How the results depend on the processing

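No paired analysis was possible because each group has 1 library. With no replicate, direction and size were compared with counting error. Values are log2 ratios, labelled knockout over control, unless stated. The main values were 0.10, 0.17 and -0.25 for the shares of NK cells, CD3 cells with NK receptors and CD8 T cells, and -0.23, 0.19 and 0.55 for their summed members. In NK cells the sum was -0.32 and the share -0.35 with a mitochondrial limit of 5%, the sum was -0.47 with no exclusion of other cells' markers, -0.10 with median ratio scaling and -0.13 with a mean of CPM over cells. In CD3 cells with NK receptors the sum was 0.51 with the 5% limit, -0.16 without the exclusion, 0.58 with at least 2 NK receptor UMIs, and 0.0046 with a mean over cells. In CD8 T cells the share was -0.063 and the sum 0.28 without the exclusion.

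With Xist only, the NK share was 0.45 and sum -0.45, the sum in CD3 cells with NK receptors -0.33, with Klra1 at -0.15 and Klrk1 at -0.054, and in CD8 T cells the sum was 0.32 and Klrc2 -0.46. With Y-linked UMIs only, the NK share was -0.62 and sum 0.55, with Klra4 at 0.84, Klra8 1.64, Klrc2 0.15, Klrd1 -0.10 and Klrk1 0.18, and shares of NK cells higher by 20.5 percentage points for Klra8 and 4.67 for Klrc2. There the CD3 cells with NK receptors had a share of -1.23 and a sum of 0.36, and the CD8 T cells a share of -0.64, a sum of 0.039, Klrk1 at -0.98 and a difference of -3.93 points in cells with Klrk1. The cause of these differences was not tested.

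Of 408 log2 ratios of members under alternatives, 351 stayed within counting error of the main value, 48 moved and 9 reversed. A ratio was called reversed only where the main interval excluded 0, so other changes of sign are among the first 2 counts. An example is Klra1 in NK cells, at -0.19 in the main setting and 1.63 with Y-linked UMIs only. Genes past 2-fold numbered 336 in NK cells (80 with a pseudocount of 20 CPM, 1018 with no filter) and 248 in CD3 cells with NK receptors (79 to 1653). In CD8 T cells they numbered 187 (55 to 920, the latter in cells with Y-linked UMIs only). Klra1 and Klrg1 in NK cells, Klra4, Klra8 and Klrg1 in CD3 cells with NK receptors and Klra1 in CD8 T cells rest on few UMIs or cells, so their ratios are limited by depth.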
